A study of Homo sapiens with 18 samples.

Results

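The expression of Holoclone cells of Panc89 was compared with that of Holoclone cells of Panc1 in 6 of the 18 RNA-seq libraries of the series, 3 per line, chosen by their deposited labels. Attention was given to genes whose difference between the lines was larger, smaller or opposite in Holoclone cells than in the parental cells, for which 3 libraries of parental Panc89 and 3 of parental Panc1 were used. The lines are models of pancreatic ductal adenocarcinoma (PDAC): Panc1 was derived from a primary tumour and stands for mesenchymal-like cells, and Panc89 was derived from a lymph node metastasis and stands for epithelial cells. None of the labels names a treatment, a time point or a genetic change. Each Holoclone line had been expanded from a single cell, and its 3 libraries were made from RNA of different passages. They therefore repeat 1 clone per line, so that what belongs to the clone and what belongs to the Holoclone state cannot be told apart, and p-values measure only the spread between these passages.

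A Holoclone is a compact, smooth-edged colony that a single cell founds, and the cells of such colonies are held to be rich in cancer stem cells, which renew themselves and can found tumours. Epithelial cells keep contact through E-cadherin junctions, desmosomes and keratins, while mesenchymal cells carry vimentin and matrix proteins. Factors such as *ZEB1* and *SNAI1* silence epithelial genes, and OVOL factors oppose them.

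The deposited values are log2(TPM + 1), where TPM (transcript abundance relative to the whole library) hold no read counts, so sequencing depth and counting error are not known. All differences below are Panc89 minus Panc1 on this scale, on which changes of genes near or under 1 TPM come out smaller than they are. A gene was called when its adjusted p in limma (Benjamini-Hochberg over 16093 tested genes) was under 0.05, and errors are standard errors (SE) unless named otherwise. Between 13369 and 14199 genes reached 1 TPM in the Holoclone libraries. Panc89 Holoclone replicates 1 and 3 were the least alike among replicates of the 4 groups (Pearson correlation across genes 0.962). Panc89 Holoclone replicate 1 and Panc1 parental replicate 2 stood apart from their groups in the stress response genes described further on, and counts that rest on them are given there also without both.

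Most of the transcriptome differed between the Holoclone lines. In 10583 genes, or 65.8% of those tested, the levels were called different, with 4720 higher and 5863 lower in Panc89 Holoclone. The share of higher genes among these was 44.6%, and it turned to 49.5% and 52.2% when the libraries were rescaled by their upper quartile or by the median of ratios. Between the parental cells 10623 genes, or 66.0%, were called. Of these 41.6% were higher in Panc89, and 49.9% and 51.7% under the same rescalings. The median of all differences was −0.11 in Holoclone and −0.18 in parental cells. Across genes, which are not independent replicates, the differences of both comparisons had a Pearson correlation of 0.875 and a slope of 0.881. Of the 8623 genes called in both comparisons, 8391 differed in the same direction.

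The difference between the lines itself shifted in 3013 genes, 18.7% of those tested, with 1759 shifted toward Panc89 and 1254 toward Panc1 in Holoclone cells. The share toward Panc89, 58.4%, depended on the scaling and on 1 library, with 49.6% and 52.1% under the rescalings and 52.7% without Panc89 Holoclone replicate 1. A larger difference in Holoclone cells was found in 1426 genes, of which 841 were called in both comparisons and 585 in Holoclone cells alone. A smaller difference was found in 1347 genes, of which 662 were still called in Holoclone cells and 685 were not. An opposite difference, called in both comparisons, was found in 232 genes, 122 of them higher and 110 lower in Panc89 Holoclone. For 8 further genes neither comparison was called. Genes called in Holoclone cells alone numbered 1960, and the shift passed its own test in 585 of them, so that being called in 1 comparison alone did not by itself show that the lines differed in this respect.

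Holoclone cells were also set against the parental cells of their own line, in which 3981 genes, or 24.7%, were called in Panc89 and 1759 genes, or 10.9%, in Panc1. Of the 3013 shifted genes, 1804 differed from their parental cells in Panc89 alone, 742 in Panc1 alone, 242 in both lines and 225 in neither. These comparisons use the same parental and Holoclone libraries as the shift, and the counts describe it without being a second test.

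**Figure D1:**
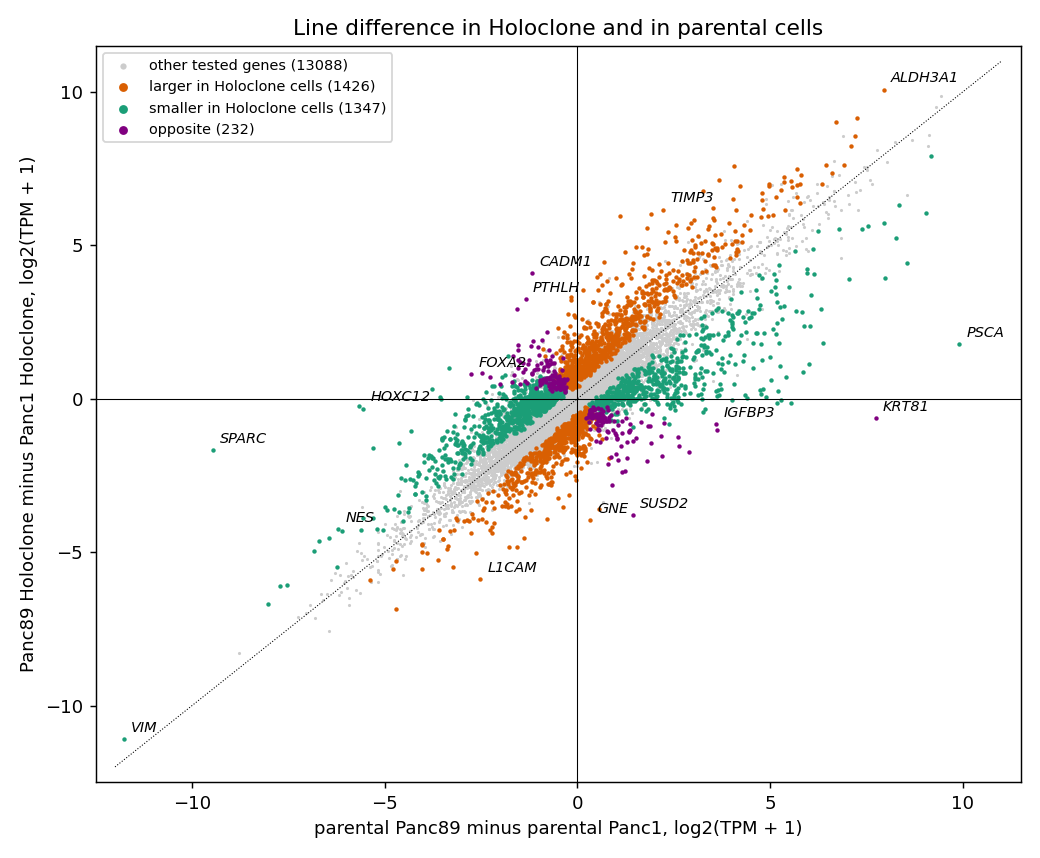
Each point is a tested gene, placed by the difference between parental cells (x axis) and between Holoclone cells (y axis), both Panc89 minus Panc1 in log2(TPM + 1). The dotted line marks equal differences, most genes lie along it, and the 232 genes with opposite differences lie to the upper left and the lower right.

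Of the 8 markers followed in the study, *L1CAM*, *NES*, *OVOL2* and *VIM* shifted. *L1CAM*, an adhesion molecule of nerve and carcinoma cells (chrX:153861514-153886173, GRCh38), stood at 7.59, 7.65 and 7.45 in Panc1 Holoclone and at 1.92, 1.58 and 1.53 in Panc89 Holoclone. All 3 Panc89 Holoclone libraries were thus far below Panc1 Holoclone, and also below the 4.72 to 5.14 of parental Panc89. The difference of −5.89 ± 0.26 in Holoclone cells against −2.52 in parental cells was a widening by −3.37 ± 0.37 (limma, adjusted p = 1.46e-05).

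*NES* encodes nestin, an intermediate filament protein of neural stem cells. It stood at 4.98, 4.51 and 5.01 in Panc1 Holoclone, below the 6.53 to 7.26 of parental Panc1, and at 1.26, 0.33 and 0.15 in Panc89 Holoclone. The lines did not overlap, but the difference was smaller than in parental cells, with −4.25 ± 0.28 against −6.21, although with a pseudocount of 0.1 this shift was not called (adjusted p = 0.185). *OVOL2*, a factor that holds cells epithelial, was at 1.58, 1.96 and 1.90 in Panc89 Holoclone against 3.04 to 3.38 in parental Panc89, and its difference fell from 3.00 in parental to 1.30 ± 0.16 in Holoclone cells.

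*VIM*, the gene of vimentin, had the lowest difference of all named genes, −11.09 ± 0.15 in Holoclone and −11.78 in parental cells. It was at 10.98, 11.48 and 11.30 in Panc1 Holoclone and at no more than 0.23 in Panc89 Holoclone. Its shift of 0.69 ± 0.21 (limma, adjusted p = 0.0356) was small beside the difference itself and was no longer called with both libraries that stood apart left out (adjusted p = 0.115).

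For *CDH1* (E-cadherin) the Holoclone difference was 5.61 ± 0.19 and the shift 0.56 ± 0.27 (limma, adjusted p = 0.169), called at 0.77 without Panc1 parental replicate 1 (adjusted p = 0.0419), and for *ZEB1*, its repressor, −3.94 ± 0.26 with a shift of 0.17 ± 0.37. *SOX2*, a pluripotency factor, was at 6.03, 5.07 and 4.20 in Panc89 Holoclone and at 0.27, 0.36 and 0.46 in Panc1 Holoclone, with a shift of −0.03 ± 0.48 that was not called and whose error leaves room for changes in either direction. *ZEB2* was not called in any of these comparisons.

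The genes that stood highest in Panc89 Holoclone were *ALDH3A1*, an aldehyde dehydrogenase, with a difference of 10.08 ± 0.33, *KRT17*, a keratin of basal cells, with 9.87 ± 0.26, *FXYD3*, a regulator of the sodium pump, with 9.51 ± 0.14, and *AQP3*, a channel for water and glycerol, with 9.17 ± 0.29. Of these, *ALDH3A1* (shift 2.12 ± 0.46) and *AQP3* (shift 1.90 ± 0.42) had widened, while *KRT17* and *FXYD3* were not called in the shift. *ALDH3A1* was listed at 0 in all 3 Panc1 Holoclone libraries and at 10.12, 10.30 and 9.81 in Panc89 Holoclone. Reads of *KRT17* can be shared with keratin relatives and pseudogenes. The lowest besides *VIM* were *PPP1R14A*, an inhibitor of myosin phosphatase, with −8.28 ± 0.22, *TM4SF1*, a membrane protein of many carcinomas, with −7.58 ± 0.51, and *APOE*, a carrier of lipids, with −7.15 ± 0.30. None of these 3 was called in the shift, but that of *TM4SF1* was called at −1.99 without Panc89 Holoclone replicate 1 (adjusted p = 0.00275).

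Of the 232 genes with opposite differences, 40 exceeded 1 on the log2 scale in both comparisons, 16 of them higher and 24 lower in Panc89 Holoclone. All 40 were also opposite under both rescalings, against 162 and 152 of the 232. *CADM1*, an adhesion molecule of the immunoglobulin family (chr11:115169218-115504957), stood at 1.88, 2.48 and 1.85 in Panc1 Holoclone and at 6.34, 6.24 and 5.90 in Panc89 Holoclone. In the parental cells the order was the reverse, with 4.57 to 5.47 in Panc1 and 3.63 to 3.93 in Panc89. The groups did not overlap in either comparison, and the difference of 4.09 ± 0.23 against −1.18 gave a shift of 5.26 ± 0.33 (limma, adjusted p = 4.86e-08).

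*PTHLH*, the gene of parathyroid hormone-related protein (chr12:27958084-27972733), had the same pattern. It was at 1.05, 1.35 and 1.07 in Panc1 Holoclone and at 4.79, 4.24 and 4.17 in Panc89 Holoclone, with 3.04 to 3.84 in parental Panc1 and 1.80 to 2.70 in parental Panc89. Its differences were 3.24 ± 0.31 and −1.35. *TNFRSF9*, a costimulatory receptor of the tumour necrosis factor family also known as 4-1BB, had 2.92 ± 0.46 and −1.58, and *GPSM3*, a modulator of G protein signalling, had 1.76 ± 0.17 and −1.55. *TNFRSF9* spread from 3.21 to 4.99 within Panc89 Holoclone, all above the 0.61 to 1.54 of Panc1 Holoclone.

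*FOXA2*, a forkhead factor that opens chromatin in endoderm and pancreas (chr20:22580998-22585455), differed from parental cells in Panc89 alone. In Panc1 it was at 5.03, 4.95 and 5.03 in Holoclone and 4.99 to 5.44 in parental cells. In Panc89 it was at 5.25, 5.98 and 6.18 in Holoclone and 2.22 to 2.62 in parental cells. The Holoclone difference was 0.80 ± 0.20 and the parental difference −2.76, a shift of 3.56 ± 0.29 (limma, adjusted p = 7.35e-07).

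Among genes lower in Panc89 Holoclone, *KRT81*, a keratin of hair (chr12:52285913-52291534), had the largest shift, −8.38 ± 0.36 (limma, adjusted p = 4.63e-10). It was at 9.10, 9.68 and 9.10 in parental Panc89 and at 0.21, 0.36 and 0.08 in Panc89 Holoclone. Panc1 had 1.09 to 1.80 in parental and 0.65 to 1.16 in Holoclone cells, so that the Holoclone difference of −0.64 ± 0.25 lay between levels near or under 1 TPM. Close relatives of *KRT81* share sequence with it, and its reads may be split among them.

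*SUSD2*, a surface protein with a sushi domain (chr22:24181487-24189106), was at 4.85, 4.54 and 4.72 in parental Panc89 but at 0.17, 0.07 and 0.14 in Panc89 Holoclone, against 4.20, 3.85 and 3.69 in Panc1 Holoclone. The Holoclone difference of −3.79 ± 0.29 was the largest among the opposite genes named here as lower, and the parental difference was 1.45. *CYBRD1*, an iron reductase, had −1.02 ± 0.31 and 3.63. *IGFBP3*, which binds insulin-like growth factors (chr7:45912245-45921874), had −0.82 ± 0.28 and 3.60. *RGCC*, a regulator of the cell cycle, had −1.55 ± 0.31 and 2.65. All 3 stood higher in Holoclone than in parental cells of Panc1 (by 1.45, 0.83 and 1.11) and lower in those of Panc89 (by −3.20, −3.59 and −3.09), though the rise of *IGFBP3* in Panc1 was not called (limma, adjusted p = 0.0772).

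*SNAI1*, a repressor of E-cadherin, and *MUC1*, a membrane mucin of ductal epithelium, were also opposite. *SNAI1* was at 0.95, 0.89 and 1.08 in Panc89 Holoclone against 4.72 to 4.97 in parental Panc89, and at 3.20 to 3.39 in Panc1 Holoclone, with differences of −2.35 and 1.24. *MUC1* was at 2.75, 2.56 and 2.44 in Panc89 Holoclone against 4.54, 4.57 and 4.45 in Panc1 Holoclone, with differences of −1.94 and 1.28. *FOXA3*, a relative of *FOXA2*, went the other way from it, with −0.86 in Holoclone and 1.06 in parental cells. Its levels were low and did not pass the stricter filter of 5 TPM. Its shift ran from −4.45 to −1.82 over the alternatives.

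The sequence before the start of 2 opposite genes, 1 higher and 1 lower in Panc89 Holoclone, is shown because *SNAI1* and *ZEB1* bind the letters CAGGTG or CACCTG, and *SNAI1* was opposite itself. These are 250 bases before the RefSeq start on GRCh38.p14, 5′ to 3′ on the gene's strand, with each match on either strand in capitals. For *PTHLH* the window is chr12:27969977-27970226 on the minus strand, and for *IGFBP3* chr7:45921273-45921522 on the minus strand. Both windows lie within the gene as GENCODE draws it, since other transcripts start further upstream.
PTHLH: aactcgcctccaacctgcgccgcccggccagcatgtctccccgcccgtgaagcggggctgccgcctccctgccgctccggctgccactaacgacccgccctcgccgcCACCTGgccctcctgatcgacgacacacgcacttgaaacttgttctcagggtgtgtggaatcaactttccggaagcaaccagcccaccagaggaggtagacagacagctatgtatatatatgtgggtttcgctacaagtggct
IGFBP3: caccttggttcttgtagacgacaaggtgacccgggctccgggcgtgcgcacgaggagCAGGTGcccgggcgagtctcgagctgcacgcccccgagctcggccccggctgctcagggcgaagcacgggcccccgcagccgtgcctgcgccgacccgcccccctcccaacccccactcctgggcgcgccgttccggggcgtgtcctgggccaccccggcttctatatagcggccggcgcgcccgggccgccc
Each window holds 1 match. They were chosen for that match. The windows drawn for other opposite genes, *TNFRSF9*, *RGCC*, *FOXA3* and *EDEM1*, hold none, and that of *MET*, named below, was not drawn. Of the 16093 tested genes, 8527 (53%) had a single RefSeq window, and 1375 of these (16.1%) held the letters, which read as each other on the opposite strand. A share among the opposite genes is not given, because too few of the genes had a window. A match is a description of the letters and not a binding site.

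**Figure D2:**
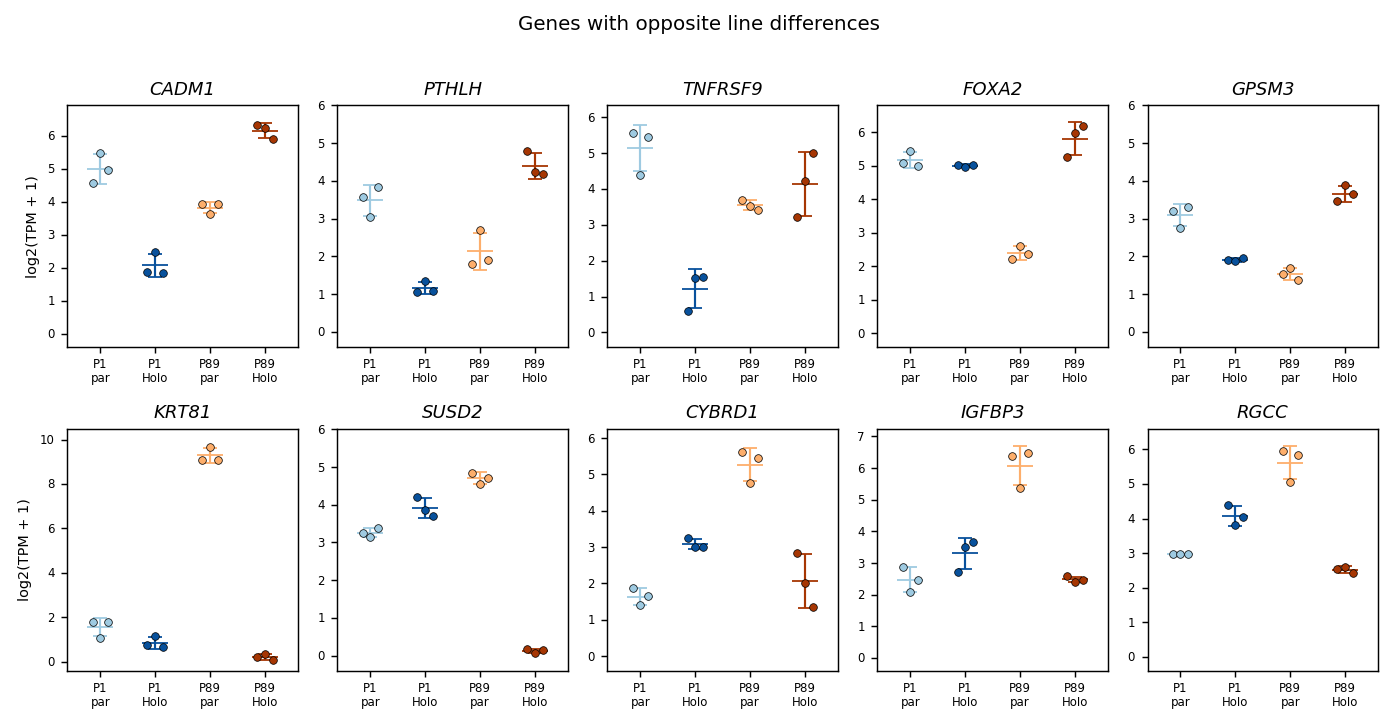
Each panel shows 1 gene with an opposite line difference in parental (par) and Holoclone (Holo) cells of Panc1 (P1) and Panc89 (P89), as log2(TPM + 1) per library, with the mean and SD of the 3 libraries. In the upper row Panc89 is above Panc1 in Holoclone cells and below it in parental cells, and in the lower row the order is turned.

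Larger differences went with a change in either line. *S100A16*, a calcium-binding protein, was at 8.79, 8.66 and 8.80 in Panc89 Holoclone, close to the 8.60 to 9.09 of parental Panc89, while Panc1 fell from 6.77 to 6.99 in parental to 2.60, 2.75 and 2.83 in Holoclone cells. Its difference was 6.02 ± 0.15 in Holoclone and 1.91 in parental cells. *ZNF512*, a zinc finger protein, was likewise at no more than 0.06 in Panc1 Holoclone against 2.68 to 3.71 in parental Panc1. With 3.76 to 4.74 in Panc89 Holoclone, its difference was 4.07 ± 0.30 in Holoclone cells and 0.58, not called, in parental cells.

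*TIMP3*, an inhibitor of matrix metalloproteinases (chr22:32801705-32863041), moved in Panc89. It was at 6.26, 6.46 and 6.12 in Panc89 Holoclone, against 2.00 to 2.54 in parental Panc89 and no more than 0.17 in either group of Panc1, and its difference rose from 2.21 to 6.16 ± 0.14. *THBD*, the thrombin receptor thrombomodulin, was at 6.24, 7.06 and 7.26 in Panc89 Holoclone and at 0.80, 1.05 and 0.82 in Panc1 Holoclone. Its Holoclone difference was 5.96 ± 0.65 and its parental difference 1.10, which was not called. The long noncoding RNA *LINC00589* (5.56 ± 0.30 against 1.81) also widened toward Panc89. The pseudogene *RPLP0P2* gained a difference of 4.45 ± 0.81, where that of parental cells, 0.68, was not called. *RPLP0P2* spread from 2.38 to 6.72 within Panc89 Holoclone, and its reads can come from its parent gene. Its shift was not called in 12 of 24 alternatives. Among these were the fits without Panc89 Holoclone replicate 2 (adjusted p = 0.0751) or 3 (adjusted p = 0.0702).

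*GNE*, an enzyme that starts sialic acid synthesis (chr9:36214441-36277042), was at nearly the same level in 3 of the 4 groups. It was at 5.53, 5.46 and 5.47 in Panc1 Holoclone, 5.25 to 5.58 in parental Panc1 and 5.51 to 5.90 in parental Panc89, but at 1.84, 1.44 and 1.28 in Panc89 Holoclone. The Holoclone difference was −3.96 ± 0.17 and the shift −4.28 ± 0.24 (limma, adjusted p = 1.29e-08). *CD70*, a ligand of the tumour necrosis factor family, had −3.59 ± 0.32 in Holoclone and 0.56 in parental cells. *CCN5*, a matricellular protein, had −3.91 ± 0.33 and −0.78. The parental differences of *CD70* and *CCN5* were not called.

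*PADI2*, which converts arginine to citrulline in proteins, widened from −1.58 to −4.84 ± 0.16 with the lower level in Panc89 Holoclone, at 0.58, 0.29 and 0.30 against 3.05 to 3.50 in parental Panc89. *TMPRSS2*, a serine protease of epithelial surfaces, widened from −1.39 to −4.53 ± 0.19 on the side of Panc1, where it was at 4.58, 5.13 and 4.77 in Holoclone and 1.04 to 1.84 in parental cells.

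Smaller differences included the largest shift toward Panc89. *SPARC*, a matricellular glycoprotein (chr5:151661096-151686975), was at 9.94, 9.25 and 10.07 in parental Panc1 and at 1.92, 1.85 and 1.44 in Panc1 Holoclone. Panc89 had no more than 0.55 in either group. The difference of −9.46 in parental cells was thus −1.68 ± 0.20 in Holoclone cells, a shift of 7.78 ± 0.28 (limma, adjusted p = 8.52e-11). *HOXC12*, a homeobox factor, went from −5.56 to −0.32 ± 0.11, and *C1QTNF12*, a secreted protein, from −5.30 to −1.61 ± 0.23. *CES1*, a carboxylesterase, was at 5.58 to 6.15 in parental Panc1 and at no more than 0.44 in the other 3 groups, and its difference of −5.66 was lost in Holoclone cells (−0.24 ± 0.18). *ABLIM3*, a protein that binds actin, lost a difference of −3.77 and was at 2.82 to 2.94 in Panc1 and 2.98 to 3.45 in Panc89 Holoclone. *OSCAR*, a receptor of osteoclasts, lost −3.34 but spread from 2.82 to 6.64 within Panc89 Holoclone, and its shift was not called without Panc89 Holoclone replicate 2 or 3 or Panc1 parental replicate 1.

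On the side of Panc89, *PSCA*, a surface antigen anchored in the membrane, was at 10.29, 10.52 and 10.43 in parental cells and at 2.22, 1.80 and 1.69 in Holoclone cells, with no more than 0.83 in Panc1. Its difference narrowed from 9.91 to 1.79 ± 0.23. *PECAM1*, an adhesion molecule of endothelial cells, narrowed from 5.86 to 0.86 ± 0.26, and *CYP24A1*, which breaks down vitamin D, from 6.01 to 1.13 ± 0.39. *ALPP* (placental alkaline phosphatase), *NNMT* (a methyltransferase of nicotinamide) and *SLURP2* (a secreted Ly6 protein) lost differences of 5.54, 5.28 and 5.17. *NNMT* was at 8.56 to 8.78 in parental Panc89 and at 2.03, 2.42 and 2.36 in Panc89 Holoclone, within the 2.19 to 2.50 of Panc1 Holoclone apart from the lowest library. *SLURP2* overlaps a neighbouring gene, and its reads are uncertain.

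**Figure D3:**
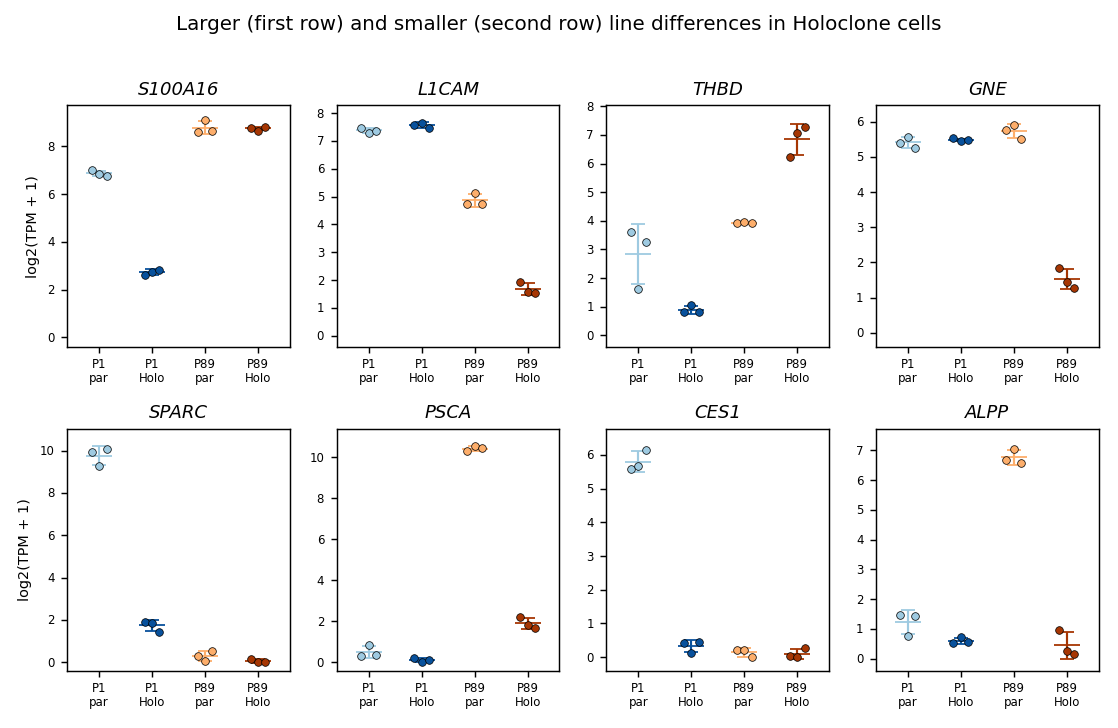
Each panel shows, among the named genes, that with the largest shift in its class and direction as log2(TPM + 1) per library, with mean and SD of 3 libraries, in parental (par) and Holoclone (Holo) cells of Panc1 (P1) and Panc89 (P89). In the upper row the Holoclone lines lie further apart than the parental cells, and in the lower row they lie closer together.

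Gene groups were described by lists written from general knowledge. Of 51 tested epithelial genes, 40 were higher and 6 lower in Panc89 Holoclone (78.4% and 11.8%, against 29.3% and 36.4% of all genes). Their median difference was 3.05, against −0.11 for all genes. In parental cells 43 were higher and 5 lower, with a median of 3.00. The difference shifted toward Panc89 in 14 and toward Panc1 in 7 of them (41.2% in all, against 18.7% of all genes), and none became opposite. With both libraries that stood apart left out these were 13 and 12. Of 12 tested epithelial regulators and splicing factors, 6 shifted toward Panc89 and 2 toward Panc1, and some factors of epithelial identity widened. *TP63*, the master factor of basal epithelium, was at 7.00, 7.28 and 7.19 in Panc89 Holoclone and at no more than 0.11 in Panc1 Holoclone, with a difference of 7.08 against 5.37 in parental cells. *KLF5* (6.89 against 5.57), *ELF3* (6.80 against 5.28) and *EHF* (7.00 against 5.77), further epithelial factors, widened too.

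Junction genes moved both ways. The desmosome genes *DSG3* (4.93 against 3.06) and *PKP3* (3.19 against 1.32) and the keratin *KRT19* (2.90 against 1.11) widened, while the desmosomal *DSP* (1.37 against 3.01), the angulin *LSR* (0.88 against 2.73) and the adhesion molecule *EPCAM* (2.56 against 3.95) narrowed. *DSC2*, a desmosomal cadherin, lost its difference, with −0.18 against 1.72. For *EPCAM*, *DSP* and *LSR* the level in Panc1 Holoclone was above parental Panc1. *EPCAM* was at 4.91, 4.82 and 5.02 against 3.31 to 3.75, while Panc89 had 7.37 to 7.69 in both groups.

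Of 58 tested mesenchymal genes, 17 were higher in Panc89 Holoclone (29.3%, the same share as of all genes). Lower were 33 (56.9%, against 36.4% of all genes). The median was −0.92, against −0.65 in parental cells. Shifts went toward Panc89 in 14 and toward Panc1 in 11 (43.1% in all, against 18.7% of all genes). By class 16 became smaller, 7 larger and 2 opposite (*SNAI1* and *IGFBP3*). Of the 14 matrix genes in the list, 6 shifted toward Panc89 and 4 toward Panc1. *COL5A2*, a fibrillar collagen, narrowed from −4.62 to −1.45, with 2.62 to 3.26 in Panc1 Holoclone against 5.54 to 5.83 in parental Panc1. *TGFBI*, a matrix protein induced by TGF-beta, lost a difference of −2.21, and *LOX*, which crosslinks collagen, lost one of 3.72 and in Panc89 was at 1.49 to 2.01 in Holoclone and 3.91 to 4.82 in parental cells. *MMP14*, a membrane-bound metalloproteinase, instead gained a difference of 3.54, with 8.24, 8.37 and 8.37 in Panc89 Holoclone and 4.49 to 5.10 in Panc1 Holoclone. *SNAI2*, a relative of *SNAI1*, was higher in Panc89 in both comparisons and widened (4.48 against 3.32).

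**Figure D4:**
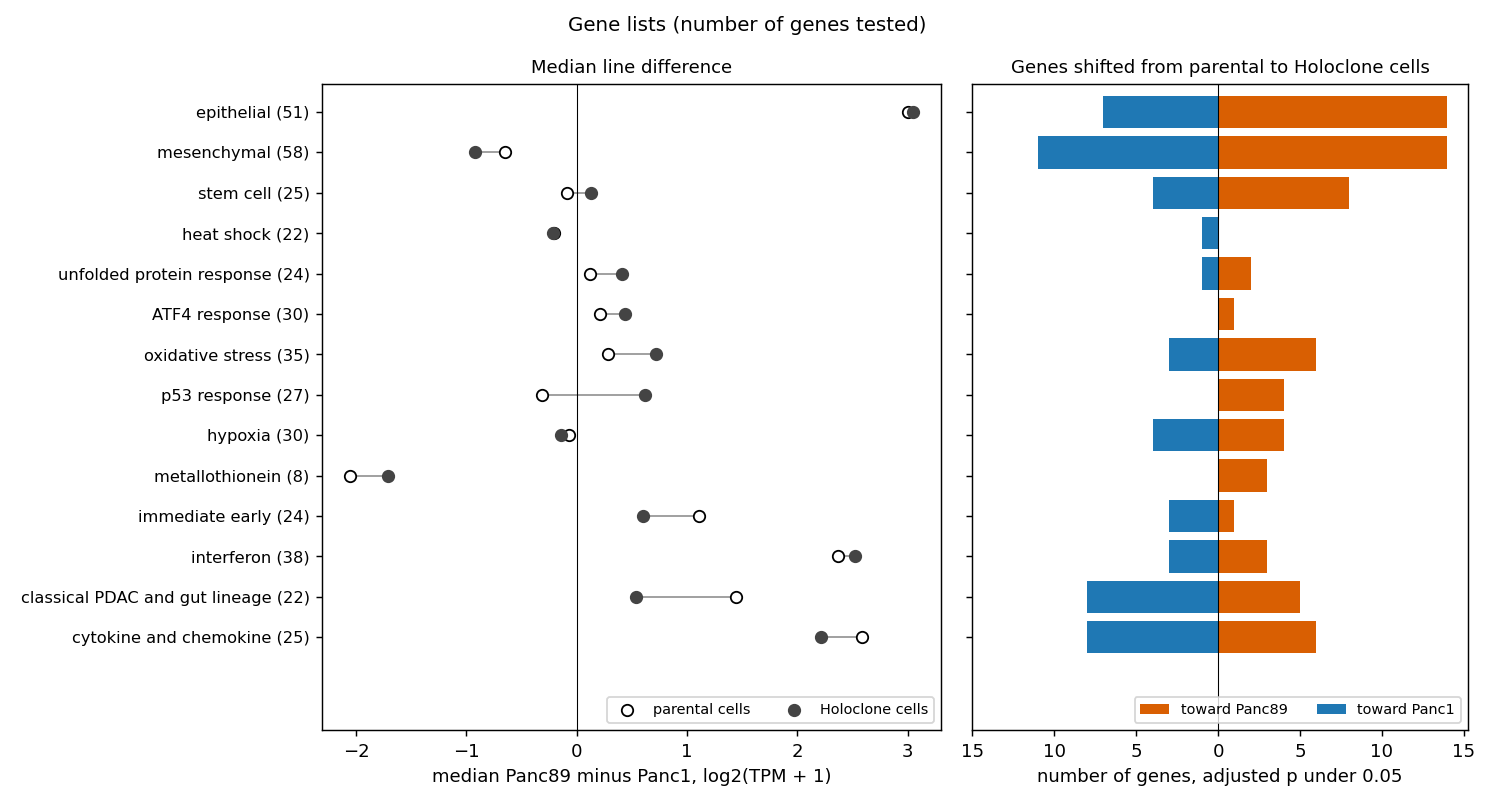
The left panel shows the median difference (Panc89 minus Panc1, log2(TPM + 1)) of each list in parental (open) and Holoclone cells (filled), and the right panel the number of its genes whose difference shifted toward Panc89 or Panc1 in Holoclone cells. The epithelial and interferon lists stand at 3.05 and 2.52 in Holoclone cells. The p53 response list has medians of −0.32 in parental and 0.62 in Holoclone cells, or 0.28 in the latter without Panc89 Holoclone replicate 1. The median shift of its genes is 0.36, and no gene of it is opposite.

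In the list of the classical PDAC subtype and gut lineage, 13 of 22 tested genes shifted (59.1%, against 18.7% of all genes), 5 toward Panc89 and 8 toward Panc1, and 3 became opposite (*FOXA2*, *FOXA3* and *MUC1*). The median difference was 0.54 in Holoclone and 1.44 in parental cells. *MUC5B*, a secreted gel-forming mucin, was at 5.12 to 5.37 in parental Panc89 and at 0.29, 0.35 and 0.63 in Panc89 Holoclone, so that a difference of 5.22 was lost (0.24). *GATA6*, a factor that marks the classical subtype, widened from 1.62 to 2.86, and *HNF4G*, a nuclear receptor of gut epithelium, gained a difference of 1.53. *FOXA1* narrowed from 3.37 to 1.70.

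Of 25 cytokine, chemokine and growth factor genes, 16 were higher and 6 lower in Panc89 Holoclone (64% and 24%, against 29.3% and 36.4% of all genes). Of the 25, 14 shifted (56%, against 18.7%), 6 toward Panc89 and 8 toward Panc1. Of the 8 growth factor genes among them, 4 shifted toward Panc89 and 2 toward Panc1. *AREG*, a ligand of the EGF receptor, was at 8.14, 9.75 and 10.10 in Panc89 Holoclone and at 0.12, 0.72 and 0.07 in Panc1 Holoclone, with a difference of 9.03 against 6.71, and *EREG* and *HBEGF*, 2 further ligands of this receptor, had 5.98 against 4.50 and 4.38 against 2.12. *IL6*, a cytokine of inflammation, was at 3.51 to 4.49 in parental Panc89 and at 0.23 to 0.27 in Panc89 Holoclone, which ended a difference of 4.01. *IL18* gained a difference of 2.71 with Panc1 Holoclone at 3.34 to 3.98, below the 5.77 to 6.68 of parental Panc1. *IL32* was opposite, with −1.80 in Holoclone and 1.00 in parental cells.

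Interferon-stimulated genes were higher in Panc89 Holoclone for 34 of 38 tested (89.5%, against 29.3% of all genes), with a median of 2.52 against 2.37 in parental cells. The difference shifted in 6 of the 38, 3 in each direction (15.8%, below the 18.7% of all genes). *IFI27* was at 5.39, 7.20 and 8.99 in Panc89 Holoclone and 0.75 to 1.35 in Panc1 Holoclone, and it narrowed from 9.05 to 6.06, as did *IFI6* (5.18 to 2.45). The shift of *IFI27* was not called without any 1 of Panc1 Holoclone replicates 1 and 3, Panc89 parental replicates 1 and 3 and Panc1 parental replicate 3, and that of *IFI6* without Panc1 Holoclone replicate 1 or Panc89 parental replicate 1 or 3. *IFITM1*, which hinders virus entry, widened from 1.80 to 4.73, with 4.13 to 4.82 in Panc1 Holoclone against 8.88 to 9.56 in parental Panc1. Reads can be shared between *IFITM1* and *IFITM3*. The list mean in Panc89 Holoclone was 6.59, 7.05 and 7.73, a wider spread than the 4.18 to 4.54 of Panc1 Holoclone.

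Of 25 stem cell genes, 10 were higher and 10 lower in Panc89 Holoclone, with a median of 0.13, which is 80% called against 65.8% of all genes. Of the 25, 12 shifted (48%, against 18.7%), 8 toward Panc89 and 4 toward Panc1. *ALDH1A3*, a retinaldehyde dehydrogenase, was at 8.42, 8.39 and 7.87 in Panc89 Holoclone and at 5.90 to 6.69 in the other 3 groups, and gained a difference of 2.08 where parental cells had 0.08. *CXCR4*, a chemokine receptor, was listed at 0 in all 3 Panc89 Holoclone libraries against 2.16 to 2.41 in parental Panc89, and lost a difference of 2.09. *ALDH1A1* lost one of 1.98 in the same way. *MSI1*, an RNA-binding protein of neural stem cells, widened from −1.34 to −2.87 and was at 3.08 to 3.20 in Panc1 Holoclone. *MET*, the receptor of hepatocyte growth factor, became opposite at a small size (0.50 against −0.65).

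Genes of cell stress are given with the 2 libraries that stood apart. In the heat shock list, the mean log2 level was 7.04 in Panc89 Holoclone replicate 1 and 6.28 and 6.18 in the others, and 7.14 in Panc1 parental replicate 2 and 6.57 and 6.51 in the others. In the ATF4 response list, of amino acid supply and the integrated stress response, the same libraries were low, at 6.79 against 7.59 and 7.87, and at 5.93 against 6.91 and 7.07. Their part in the results below was not tested beyond leaving them out, which was chosen after seeing the data. Because they stood apart in these lists, leaving them out sets the direction in which the lists move. The counts without them therefore show dependence on 2 libraries and are no support for a direction.

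Of 22 heat shock genes, 3 were higher and 6 lower in Panc89 Holoclone and 1 shifted, *DNAJA1*, a cochaperone of HSP70. Its difference was −1.17 in Holoclone and 0.57, not called, in parental cells. Without both libraries 11 were lower and 7 shifted, all 7 toward Panc1. Of 30 ATF4 response genes, 10 were higher and 4 lower and 1 shifted, *SLC7A5*, a transporter of large amino acids, with 2.91 against 2.08 and a shift that several alternatives no longer called (adjusted p up to 0.0912). Without both libraries 17 were higher and 8 shifted toward Panc89. Of 24 genes of the unfolded protein response, 10 were higher and 1 lower. Of these 24, 2 shifted toward Panc89 and 1 toward Panc1, which became 7 and 1 without both libraries. *EDEM1*, of the degradation of misfolded proteins, was opposite (0.64 against −0.35), and *ERO1B*, an oxidase of the endoplasmic reticulum, lost a difference of −1.77. With all libraries, 40.9%, 46.7% and 45.8% of the lists, in this order, were called between the Holoclone lines, against 65.8% of all genes. Shifts were called in 4.55%, 3.33% and 12.5%, against 18.7%, so all these shares lay below those of all genes.

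Of 35 genes of the oxidative stress response, 20 were higher and 8 lower in Panc89 Holoclone, with a median of 0.72 against 0.29 in parental cells. These are 80% called, against 65.8% of all genes, and 9 shifted (25.7%, against 18.7%). *GPX2*, a glutathione peroxidase, was at 5.76, 5.52 and 6.00 in Panc89 Holoclone and at no more than 0.08 in Panc1 Holoclone, and widened from 3.93 to 5.73. *AKR1C1*, a reductase of ketones whose reads can be shared with *AKR1C2*, widened from 1.72 to 4.01, and *ABCC1*, an exporter of drugs and glutathione conjugates, narrowed from −2.46 to −1.37. *FTH1*, the heavy chain of ferritin, narrowed from 2.57 to 1.08, which was no longer called without both libraries that stood apart (adjusted p = 0.0887).

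The p53 response list had a median of 0.62 in Holoclone and −0.32 in parental cells. Without Panc89 Holoclone replicate 1 the Holoclone median was 0.28. The median shift of the p53 response genes was 0.36, less than the list medians lie apart, and none of these genes was opposite. Of its 27 genes, 11 were higher and 6 lower in Panc89 Holoclone (63% called, against 65.8% of all genes), while 6 were higher and 13 lower in parental Panc89. The shift was called in 4 (14.8%, below the 18.7% of all genes), all toward Panc89, and in 7 without both libraries. *MDM2*, the ubiquitin ligase of p53, was at 6.79, 7.02 and 7.10 in Panc89 Holoclone and 4.78 to 5.16 in Panc1 Holoclone, with 1.98 against 0.60. *PLK3*, a stress kinase, had 1.85 against −0.28, the latter not called. *GADD45A*, of the DNA damage response, had 0.78, not called, against −1.89. It was at 3.99 to 4.73 in parental Panc89 and 6.05 to 7.25 in Panc89 Holoclone.

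Of 30 hypoxia genes, 12 were higher and 12 lower in Panc89 Holoclone (80% called, against 65.8% of all genes). Of these 30, 8 shifted (26.7%, against 18.7%), 4 in each direction. These were 5 and 6 without both libraries that stood apart, and 3 and 2 without Panc1 Holoclone replicate 3 or Panc89 parental replicate 1 or 3. The glucose transporter *SLC2A1* (2.56 against 1.24) and the hexokinase *HK2* (3.13 against 1.33) widened, while *CA9*, a carbonic anhydrase, lost a difference of 2.62. Of 8 genes of the metallothionein list, 6 were lower and 1 higher in Panc89 Holoclone (87.5% called, against 65.8%). In 3 the difference narrowed (37.5% shifted, against 18.7%). *MT1A* was listed at 0 in all Panc89 libraries and at 4.34 to 4.66 in Panc1 Holoclone against 6.25 to 6.73 in parental Panc1. Metallothioneins are near copies and can share reads. Of 24 immediate early genes, 10 were higher and 6 lower (66.7% called, against 65.8% of all genes), and 16.7% shifted, against 18.7%. Shifts went toward Panc89 in 1 and toward Panc1 in 3, which became 3 and 1 without both libraries that stood apart, 1 and 7 without Panc1 parental replicate 3, and 1 and 1 without Panc1 parental replicate 1 or 2. *KLF2*, a factor induced by growth signals and flow, lost a difference of 2.68, and *FOS* one of 3.67, though *FOS* was at 3.53, 3.16 and 7.02 in parental Panc1 and its shift was not called without the libraries that stood apart (adjusted p = 0.071).

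The labelled cell type was checked by markers. The summed TPM of 10 ductal markers was 3960 to 4410 in Panc89 and 2930 to 3990 in Panc1 Holoclone, and acinar markers summed to at most 1.59. Of the 8 ductal markers tested, 3 were higher and 5 lower in Panc89 Holoclone (100% called, against 65.8% of all genes). Their median difference was −1.33, against 0.37 in parental cells, so the higher sum does not hold for most of them. Markers of other cell types moved with some shifts and their part was not tested. Endothelial markers summed to 55.9 to 69.8 TPM in parental Panc89 and to 1.79 to 2.97 in Panc89 Holoclone, with *PECAM1* and *CDH5* both lower. The parental sum was mostly *PECAM1*, and only 2 of the 8 endothelial markers reached a mean of 1 TPM there. Fibroblast markers summed to 56.3 to 115 TPM in Panc89 Holoclone and 10.4 to 14.8 in Panc1 Holoclone, where *PDPN* was listed at 0. In parental cells they summed to 41.3 to 49.3 in Panc89 and 15.1 to 16.1 in Panc1, so the lines differed there already. The mean log2 level of the 3 fibroblast markers tested was 5.11 in Panc89 Holoclone replicate 1 and 4.17 and 4.19 in the others. Leukocyte markers summed to 19.3 to 26.4 TPM in Panc89 Holoclone and 54.5 to 71.7 in Panc1 Holoclone, mostly *CD68*, a lysosomal protein that other cells express too.

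Shifted genes were unevenly placed along the chromosomes, as blocks of 50 neighbouring tested genes chosen after the values were seen. The median of Holoclone minus parental over all genes was 0.08 in Panc89 and 0.01 in Panc1. In Panc89, blocks of chromosome 16 past its first part and of the short arm of chromosome 11 were raised, with up to 0.789 (chr16:72008588-84040033) and 0.642 (chr11:27654893-44084237). In Panc1, blocks of chromosome 14 past its first part and a stretch of chromosome 17 were raised, with up to 0.534 (chr14:75064109-89619149) and 0.657 (chr17:28648346-32381885). Of 319 blocks, 12 in Panc89 and 5 in Panc1 had an absolute median over 0.5. The only lowered block of the latter stood at the start of the X chromosome, at −0.545 (chrX:2903972-20267519).

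Shifts on these and other chromosomes were uneven in direction. On chromosome 16, 152 genes shifted toward Panc89 and 29 toward Panc1, on chromosome 11 181 and 47, on chromosome 14 28 and 99, and on chromosome 17 63 and 153, against 1759 and 1254 over all genes. Chromosome 5, with 140 and 39, and the X chromosome, with 99 and 31, were skewed as well. Of their genes 25.2% and 25.5% had shifted, against 25.5% on chromosome 11, 24.8% on 16, 23.8% on 14 and 22.2% on 17. In the block of chromosome 9 that holds *GNE* (chr9:33576380-36487548), the median was −0.372 in Panc89 and 0.339 in Panc1, and 22 of 50 genes shifted toward Panc1 and 0 toward Panc89.

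**Figure D5:**
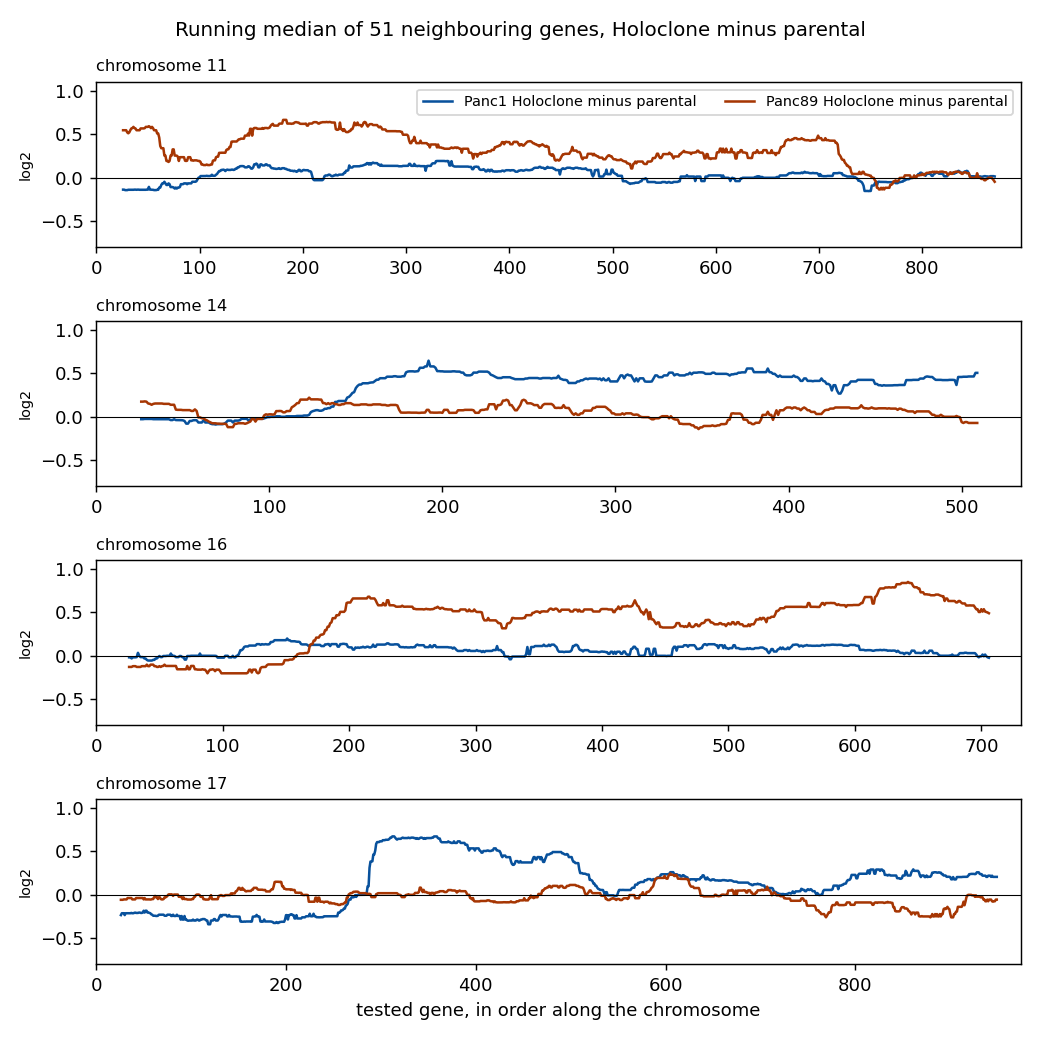
Running median over 51 neighbouring tested genes of the Holoclone minus parental difference, log2(TPM + 1), in Panc89 and in Panc1, with genes in their order along 4 chromosomes (x axis). The Panc89 line lies above 0 along most of chromosomes 11 and 16, and the Panc1 line along most of chromosome 14 and a stretch of chromosome 17.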

How the data were processed

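Stranded mRNA libraries of 3 passages per cell variant were sequenced by the authors, who mapped reads to Ensembl transcripts of GRCh38 with kallisto 0.46.1 (version from the submitters' processing notes) and used tximport to obtain scaled TPM per gene. What they deposited is log2(TPM + 1) for each gene symbol. From these, the 16093 of 40266 symbols that reached 1 TPM in 3 or more libraries were fitted by a trended empirical Bayes model of limma 3.58.1 (R 4.3.3). The model held 6 group means and used all 18 libraries, so that Paraclone libraries add to the estimate of spread. The pseudocount was 1, tests were two-sided, and p-values were adjusted by Benjamini-Hochberg over all tested genes with a threshold of 0.05. The shift is the Holoclone difference minus the parental difference, tested as 1 contrast.

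Genes were named if the study follows them or by size: the 4 highest and lowest differences in Holoclone cells, the 3 largest shifts per direction in each class (5 in the opposite class) with at least 10 TPM in the highest group, and up to 6 shifted genes per list with others that describe a role. The comparison, lists and rules were chosen with earlier results of these data known. Positions are from GENCODE 44 and promoter windows from RefSeq. Alternatives were another pseudocount, filters, scalings, thresholds, replicate blocks, a fit without Paraclone libraries and leaving libraries out. The fits were tested on simulated data.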

Additional observations from a re-analysis of the deposited data

Results flagged for a closer look

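All values in this paragraph are shifts, the Holoclone difference between the lines minus the parental one, and they stand here because limma's test of that difference was passed. This held for 3013 genes, of which 232 were opposite. No explanation was tested.

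Toward Panc89, with Panc1 Holoclone called below parental Panc1 and no called change in Panc89, the shift was 7.78 for *SPARC*, 5.42 for *CES1*, 5.24 for *HOXC12*, 4.50 for *TNFRSF9*, 4.12 for *S100A16*, 3.68 for *C1QTNF12*, 3.49 for *ZNF512* and 1.96 for *NES*. Their Holoclone minus parental differences in Panc1 ran from −8.02 for *SPARC* to −2.09 for *NES*. The shift was 3.95 for *TIMP3*, 3.77 for *RPLP0P2*, 3.75 for *LINC00589*, 3.56 for *FOXA2*, 2.12 for *ALDH3A1* and 1.90 for *AQP3*, with differences in Panc89 from 1.73 for *AQP3* to 3.94 for *TIMP3* and in Panc1 of no more than 0.17 in size. Both lines changed in opposite directions for *CADM1*, with 5.26 (2.33 in Panc89 and −2.93 in Panc1), and for *PTHLH* with 4.59 (2.27 and −2.32). *THBD* had 4.86 (2.92 and −1.94), *OSCAR* 4.35 (3.15 and −1.20), *ABLIM3* 4.09 (1.55 and −2.54) and *GPSM3* 3.31 (2.13 and −1.18). *VIM* had 0.69 (0.07 and −0.62).

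Toward Panc1, the shift was −8.38 for *KRT81*, −8.12 for *PSCA*, −5.69 for *ALPP*, −5.33 for *NNMT*, −5.30 for *SLURP2*, −5.00 for *PECAM1*, −4.87 for *CYP24A1*, −4.28 for *GNE*, −4.15 for *CD70*, −3.37 for *L1CAM*, −3.26 for *PADI2*, −3.13 for *CCN5* and −1.70 for *OVOL2*. Their differences in Panc89 ran from −9.07 for *KRT81* to −1.44 for *OVOL2*, and that of Panc1 was largest for *NNMT*, with −1.09. *TMPRSS2*, with −3.15, differed in Panc1 (3.32). *SUSD2* had −5.23 (−4.58 in Panc89 and 0.66 in Panc1), *CYBRD1* −4.65 (−3.20 and 1.45), *IGFBP3* −4.42 (−3.59 and 0.83) and *RGCC* −4.20 (−3.09 and 1.11).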

How the results depend on the processing

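Rescaling by upper quartile or median of ratios moved the median of all Holoclone differences from −0.11 to −0.01 and 0.04, that of parental differences from −0.18 to −0.01 and 0.02, and that of the shifts from 0.07 to 0.00319 and 0.02, while the count of shifts was 3021 and 3036. Requiring an absolute log2 difference over 1 left 5996 genes in Holoclone and 6020 in parental cells, 1743 shifts, 748 larger, 769 smaller and 40 opposite differences. Fits without 1 library gave 9756 to 10682 and 9863 to 10907 called genes, 2367 to 3419 shifts (highest without Panc89 Holoclone replicate 1), 1102 to 1721 larger, 1043 to 1417 smaller and 169 to 267 opposite differences. The other alternatives kept these counts within 1.5 times. With the replicate block within each line 2478 shifts and 195 opposite differences were called, and over both lines 2893 and 224. The numbers do not pair the samples (correlations of −0.218 to 0.209 over 18 pairs). The shift of *KRT17*, not called, changed sign with a pseudocount of 0.1 (−0.58, adjusted p = 0.699), and that of *SOX2*, also not called, without Panc1 Holoclone replicate 3 (0.02), Panc89 parental replicates 1 (0.07) or 3 (0.12) or Panc89 Holoclone replicate 3 (0.42), within a range of −0.50 to 0.42 over fits without 1 library. Over all alternatives the shift of *SOX2* ranged from −1.53 to 0.42. The cause was not tested. Leaving out Panc1 parental replicate 2 and Panc89 Holoclone replicate 1 together, an alternative chosen after seeing the data, gave 3556 shifts, 1752 larger, 1477 smaller and 306 opposite differences, 179 of the latter among the 232. Since TPM keep no depth, what counting error limits is unknown.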
